A study of Mus musculus with 21 samples.

Results

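The genes described here are cytochrome P450 genes of the Cyp1 to Cyp4 families in mouse liver, other than Cyp1a2, Cyp2e1, Cyp2c55 and the Cyp2a, Cyp2b and Cyp4a subfamilies. They were chosen by symbol alone, and 61 of the 22520 genes in the expression table qualified. Of these, 43 reached 1 FPKM (fragments for each kilobase of gene length, relative to all mapped fragments) in at least 1 of the 12 groups, and the same 43 entered the tests. The 43 comprised 13 Cyp2c, 8 Cyp2d, 6 Cyp3a, 6 Cyp4f and 3 Cyp2j genes, and Cyp1a1, Cyp2f2, Cyp2g1, Cyp2r1, Cyp2u1, Cyp4b1 and Cyp4v3. The other 18 (Cyp1b1, Cyp2c65, Cyp2c66, Cyp2d11, Cyp2d34, Cyp2j8, Cyp2j11, Cyp2j12, Cyp2j13, Cyp2s1, Cyp2t4, Cyp2w1, Cyp3a41a, Cyp3a57, Cyp4f39, Cyp4f40, Cyp4f41-ps and Cyp4x1) stayed under 1 FPKM in every group, and Cyp2j12 was listed at 0 throughout.

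Cytochrome P450 enzymes are haem proteins of the endoplasmic reticulum that insert an oxygen atom into drugs, toxins, steroids, bile acids and fatty acids, with electrons passed on by P450 reductase. In the liver many of them are made by the hepatocytes around the central vein, a few by those around the portal tract, and the rodent Cyp2c, Cyp2d and Cyp3a subfamilies are known for members that differ between males and females. Nuclear receptors that sense foreign compounds (PXR and CAR) and the growth hormone pathway are known to set the levels of several.

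The study measured liver RNA in mice that lacked Ezh1, Ezh2 or both, enzymes that can each serve as the histone methyltransferase of the Polycomb complex PRC2 and place H3K27me3, a mark of silent genes. All mice were of the mixed 129SV::FVB/N::C57BL/6 background. The control (WT) was Ezh2fl/fl without Cre, E1KO was Ezh1-/-, E2KO was Ezh2fl/flAlb-Cre, in which the albumin promoter drives Cre in hepatocytes and the other liver cells keep Ezh2, and DKO was Ezh1-/-Ezh2fl/flAlb-Cre. Livers were taken at 2 months, at 8 months, and at 3 months after carbon tetrachloride (CCl4), a toxin that P450 enzymes of pericentral hepatocytes activate. CCl4 was injected into the peritoneum at 2 ml/kg, 2 times a week for 2 weeks, and livers were taken 24 h after the last injection. The table has 1 value per gene for each of the 12 groups. Titles name 3 replicates behind it, or 2 at 8 months. No spread between animals is at hand and the depth of the libraries is unknown. No untreated 3-month RNA group is among those analysed here, so an effect of CCl4 and an effect of age between 2 and 3 months cannot be told apart. Below, 4 values in a row are those of WT, E1KO, E2KO and DKO in that order.

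Ezh1 stood at 2.9% to 13.2% of the WT value in 5 of the 6 groups without it, and at 43.1% in the group labelled E1KO at 8 months. That group also held skeletal muscle RNA, with 7 muscle genes summing to 350.1 FPKM against 1.25 to 1.91 FPKM in the other groups. Ezh2 stood at 69.0% to 86.8% of WT in E2KO, and in DKO at 66.7% at 2 months, 139.6% at 8 months and, after CCl4, at 44.2%. The 8-month DKO value goes against its label, but a whole-gene FPKM does not single out the floxed part and so does not check the deletion. Column totals ran from 531761 to 674119 FPKM. Hepatocyte genes were abundant in all groups (9 genes, summing to 7248 to 14610 FPKM), and Xist, the RNA of the inactive X chromosome of females, was at 0.01 to 0.03 FPKM throughout.

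Differences are on the scale of log2(FPKM+1), which understates the change of low genes. Tests are from limma (an additive model of genotype and condition over all 12 groups), with p adjusted by Benjamini-Hochberg over the 11394 genes tested. The error (SE) rests on the departure of the 12 values from additivity. Tests of whether the DKO difference changed between conditions fit the DKO values exactly. Their SE rests on the WT, E1KO and E2KO values alone. A gene is called at an adjusted p below 0.05. Within a condition there is no test, and a gene is counted as different at a log2 difference of 1 or more. FPKM is scaled to gene length, so levels can be set beside each other between genes. In whole liver, fewer cells of a type and less RNA per cell cannot be told apart.

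The 61 genes together made up 1.32% to 1.94% of all FPKM in the 8 untreated groups, and 0.937%, 0.822%, 1.10% and 1.47% with CCl4. Their summed level with CCl4 was 54.5% of the 2-month sum in WT, 44.4% in E1KO and 55% in E2KO, and 98.4% in DKO. Of the DKO sum with CCl4 (8380 FPKM), Cyp3a11 held 3877 FPKM and Cyp2c29 1352 FPKM, against 2423 and 608 FPKM in DKO at 2 months. Cyp3a11 had the highest mean over the 12 groups (2518 FPKM), followed by Cyp2c29 (949 FPKM), Cyp2d9 (658 FPKM), Cyp2f2 (613 FPKM), Cyp2d26 (559 FPKM) and Cyp2c50 (481 FPKM). At the low end, Cyp4f18 (0.673 FPKM), Cyp2d12 (0.702 FPKM) and Cyp2c39 (0.788 FPKM) had means under 1 FPKM. Cyp2j6 varied least among groups, with a highest value 1.62 times the lowest. Cyp2c69 varied most among the genes that stayed at 1 FPKM or more, by 88.6 times.

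With CCl4, most of these genes fell. The test called 28 of 43 lower (65.1%) where 24.5% of all genes tested were called lower, and 4 of 43 higher (9.3%) where 33.4% of all genes were. The median difference was -0.83 over the 43 genes and 0.07 over all genes. By subfamily, 11 of 13 Cyp2c, 6 of 8 Cyp2d, 2 of 3 Cyp2j, 4 of 6 Cyp4f and 1 of 6 Cyp3a genes fell, as did Cyp2f2, Cyp2g1, Cyp2u1 and Cyp4v3. The 4 that rose were Cyp1a1, Cyp4b1, Cyp4f16 and Cyp4f18. In 17 of the 43 every CCl4 group lay below all 8 untreated groups (16.9% of all genes did so), and in 3 every CCl4 group lay above (22.9% of all genes). Cyp2c53-ps, Cyp2d12, Cyp2g1 and Cyp2j9 reached 1 FPKM only in untreated groups, and Cyp1a1 and Cyp4f18 only with CCl4. Passing the filter on low values set the direction of these genes. With a whole genotype left out, 20 to 29 of the 43 were called lower.

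**Figure D1:**
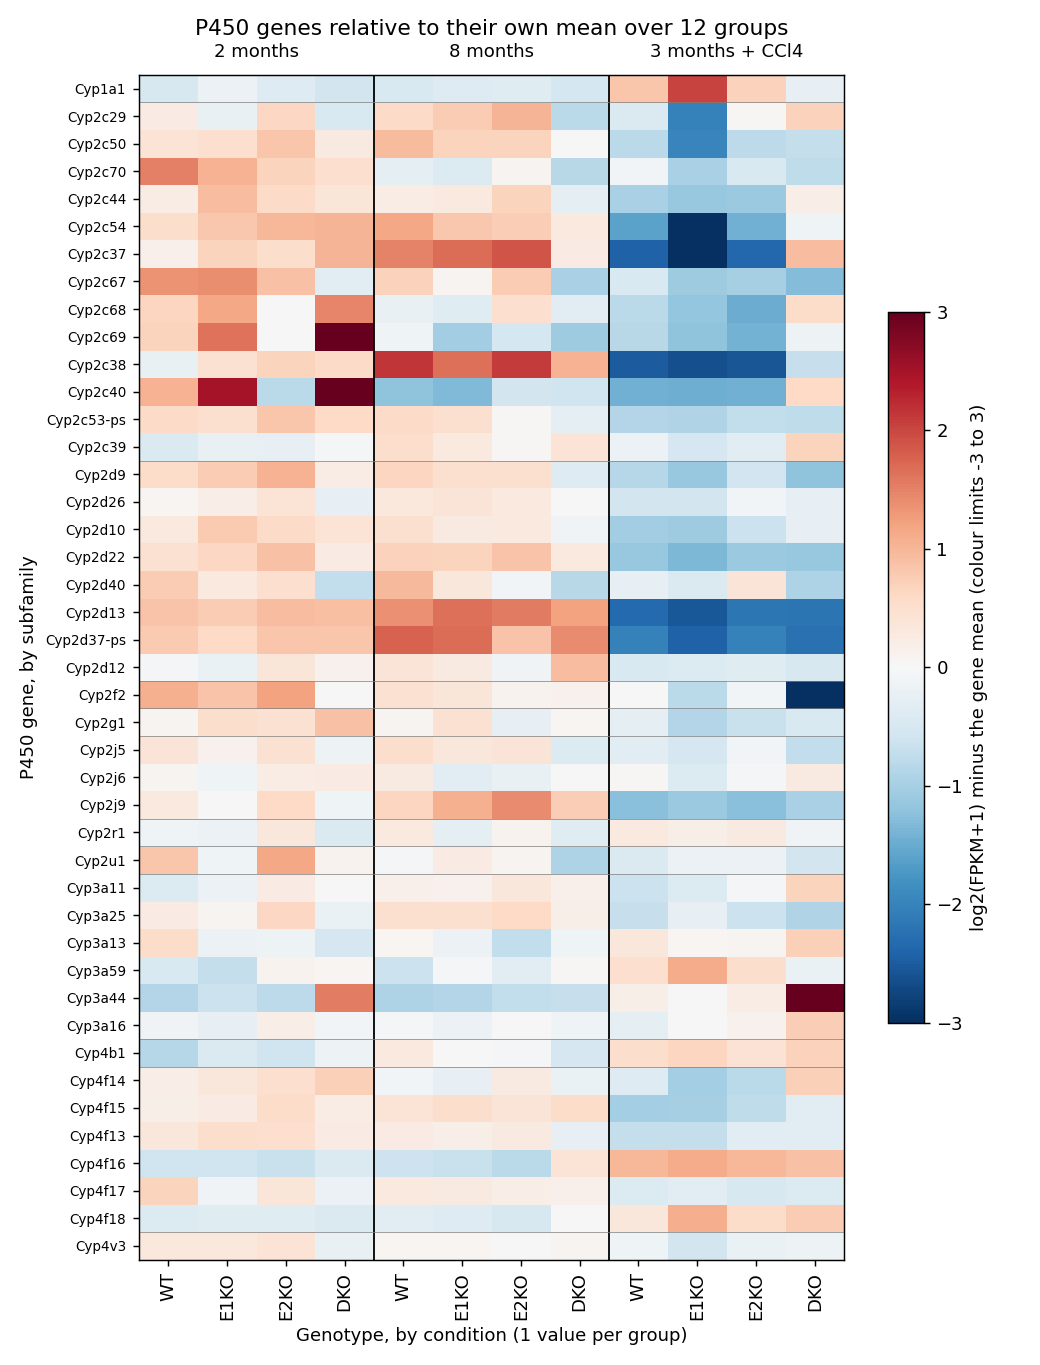
Heat map of the 43 P450 genes (rows, by subfamily) in the 12 groups (columns, by condition and genotype), coloured by log2(FPKM+1) minus the mean of that gene over the groups, with colours ending at -3 and 3. Most Cyp2c and Cyp2d rows are blue in the CCl4 block, Cyp2c37 is blue in 3 of the 4 CCl4 groups and red in DKO, and Cyp2f2 is darkest blue in DKO with CCl4.

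Markers of other cells moved with the CCl4 groups, where 33.4% of all genes tested were called higher and 24.5% lower. All 12 stellate cell and myofibroblast genes tested rose (summed level 310 to 431 FPKM with CCl4 and 86.8 to 216 FPKM without), as did 8 of 10 macrophage genes (173 to 408 FPKM against 41.0 to 93.1 FPKM), 8 of 8 sinusoidal endothelial genes (112 to 127 FPKM against 41.9 to 89.1 FPKM), 4 of 6 cholangiocyte genes and 2 of 2 neutrophil genes. Among hepatocyte genes 6 of 9 fell and 1 rose. Their part in the P450 differences was not tested.

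The Cyp2c subfamily includes the arachidonic acid epoxygenases of liver, and all 13 of its members tested lie on chromosome 19. Cyp2c29, Cyp2c37, Cyp2c50 and Cyp2c54 are known as pericentral genes. Cyp2c29 was at 982, 716, 1276 and 608 FPKM at 2 months, at 1229, 1403, 1682 and 473 FPKM at 8 months and at 617, 203, 847 and 1352 FPKM with CCl4. Its CCl4 values ran from the lowest of the 12 in E1KO to above every 2-month value in DKO, so that the groups overlapped and the CCl4 difference was not called at -0.48 (SE 0.54, adjusted p = 0.47). Cyp2c50 was at 555, 589.6, 742 and 499.6 FPKM at 2 months, at 808, 664, 659 and 419 FPKM at 8 months and at 238, 104, 241 and 252 FPKM with CCl4. All of its CCl4 values were below all others, and it fell by 1.58 (SE 0.28, adjusted p = 0.00141). Cyp2c54 was at 243, 295, 337 and 343 FPKM at 2 months, at 379, 297, 279.7 and 208 FPKM at 8 months and at 54.4, 18.0, 61.2 and 154 FPKM with CCl4. It too had no overlap, and its difference of -2.42 (SE 0.48, adjusted p = 0.00259) left the DKO value the highest of the 4.

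Cyp2c37, which hydroxylates and epoxidises arachidonic acid, was at 107, 153, 139.8 and 195 FPKM at 2 months, at 274, 307, 358 and 115 FPKM at 8 months and at 17.0, 5.91, 17.9 and 185 FPKM with CCl4. With CCl4 the WT, E1KO and E2KO groups were at 15.9%, 3.86% and 12.8% of their 2-month values, and that of DKO at 94.8%. The difference of -2.51 (SE 0.82, adjusted p = 0.0282) was no longer called when WT, E1KO or E2KO was left out, or with no filter on low values. Reads of Cyp2c37, Cyp2c50 and Cyp2c54, related genes whose likeness was not measured here, may be exchanged, so their split is uncertain.

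Cyp2c70, which makes the muricholic acids of mouse bile, was at 904, 654, 503 and 451 FPKM at 2 months, at 259, 236, 336 and 178 FPKM at 8 months and at 297, 160.4, 232 and 185 FPKM with CCl4. The 2-month values were the 4 highest, and both CCl4, at -1.5 (SE 0.20, adjusted p = 0.000335), and 8 months, at -1.30 (SE 0.20, adjusted p = 0.0139), were called lower. Cyp2c44, an arachidonic acid epoxygenase, was at 266, 433, 341 and 297 FPKM at 2 months, at 266, 282, 364 and 191 FPKM at 8 months and at 116, 104, 106 and 261 FPKM with CCl4. It fell by 1.28 (SE 0.33, adjusted p = 0.00983), with the DKO value with CCl4 inside the untreated range, and the call was lost without E1KO. Cyp2c38 was at 4.54, 7.82, 9.17 and 8.52 FPKM at 2 months, at 27.5, 19.1, 26.4 and 12.2 FPKM at 8 months and at 0.14, 0.03, 0.09 and 2.99 FPKM with CCl4. It fell by 2.46 (SE 0.45, adjusted p = 0.00168) with no overlap, and the DKO group kept the highest CCl4 value. Cyp2c53-ps, a transcribed pseudogene, was at 1.83, 1.64, 2.37 and 1.88 FPKM at 2 months, at 1.83, 1.65, 0.94 and 0.59 FPKM at 8 months and at 0.03, 0.02, 0.14 and 0.13 FPKM with CCl4. Its difference of -1.44 (SE 0.17, adjusted p = 0.000214) was also without overlap. Cyp2c39 stayed between 0.22 and 1.73 FPKM and was not called, at 0.16 (SE 0.18, adjusted p = 0.478).

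Cyp2c67, Cyp2c68, Cyp2c40 and Cyp2c69 are neighbours in RefSeq order, and the 250 bases before their annotated start sites are shown because the genes behaved differently although these bases are nearly alike. They are from RefSeq (GRCm38.p6, a later build than the mm9 of the table), all on the minus strand, 5′ to 3′, at chr19:39812815-39813064 for Cyp2c40, chr19:39886770-39887019 for Cyp2c69, chr19:39741102-39741351 for Cyp2c68 and chr19:39649043-39649292 for Cyp2c67. Capitals mark the bases that differ from Cyp2c40 in the stretch aligned with it.
Cyp2c40: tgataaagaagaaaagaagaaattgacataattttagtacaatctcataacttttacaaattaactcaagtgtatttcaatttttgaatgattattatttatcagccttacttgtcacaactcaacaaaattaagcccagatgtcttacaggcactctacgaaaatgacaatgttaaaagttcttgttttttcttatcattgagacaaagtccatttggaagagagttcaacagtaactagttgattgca
Cyp2c69: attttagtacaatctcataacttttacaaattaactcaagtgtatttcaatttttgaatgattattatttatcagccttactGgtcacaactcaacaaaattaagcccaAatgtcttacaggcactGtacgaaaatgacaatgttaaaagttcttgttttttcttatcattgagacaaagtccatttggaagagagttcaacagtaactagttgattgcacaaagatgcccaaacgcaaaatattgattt
Cyp2c68: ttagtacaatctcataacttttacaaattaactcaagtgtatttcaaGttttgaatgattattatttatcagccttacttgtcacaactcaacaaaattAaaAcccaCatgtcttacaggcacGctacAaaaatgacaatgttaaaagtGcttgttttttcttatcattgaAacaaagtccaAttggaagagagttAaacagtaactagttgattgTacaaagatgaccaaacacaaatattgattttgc
Cyp2c67: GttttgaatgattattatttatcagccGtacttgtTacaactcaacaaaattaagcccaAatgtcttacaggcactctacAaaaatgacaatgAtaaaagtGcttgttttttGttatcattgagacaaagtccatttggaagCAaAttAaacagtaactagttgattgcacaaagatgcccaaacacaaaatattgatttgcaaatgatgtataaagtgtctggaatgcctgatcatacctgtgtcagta

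Over the aligned stretches Cyp2c40 shared 98.6% of 220 positions with Cyp2c69, 95% of 218 with Cyp2c68 and 92.9% of 170 with Cyp2c67. The annotated starts are not at matching bases, so the windows are shifted against each other. The letters GTTAAT, the core of the HNF1 motif, lie on the other strand and appear as ATTAAC on the printed strand. On the printed strand ATTAAC begins at position -191 of Cyp2c40, -221 of Cyp2c69 and -224 of Cyp2c68, counted from the annotated start. The matching bases lie outside the Cyp2c67 window. Of the 43 genes 33 had a RefSeq window (250 bases before to 50 after the start). A gene was counted where any of its windows matched, while the shares of all 32851 windows are by single window, so the measures are unlike. GTTAAT on either strand was in 5 of the 33 (15.2%) and in 7.1% of all windows. The 5 include Cyp2c40, Cyp2c69 and Cyp2c68, where the match lies in the same aligned bases. TTCNNNGAA, the STAT5 motif, was in 2 of 33 (6.1%, all windows 8.3%), and neither was among these neighbours. AGGTCA, bound by nuclear receptors, was in 10 of 33 (30.3%, all windows 16.3%), and GCGTG, the core bound by AhR, in 7 of 33 (21.2%, all windows 32.4%). A match is a description of letters only.

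Cyp2c40, known as a female-biased gene, was at 4.79, 15, 0.61 and 73.8 FPKM at 2 months, at 0.22, 0.13, 0.92 and 0.86 FPKM at 8 months and at 0.05, 0.03, 0.05 and 3.25 FPKM with CCl4. The 2-month DKO value was the highest by far, at 15.4 times WT, and with CCl4 the DKO value was again the highest of its condition. Cyp2c69, also known as female-biased, was at 7.60, 15.7, 4.46 and 89.5 FPKM at 2 months, at 3.91, 1.6, 2.72 and 1.58 FPKM at 8 months and at 2.01, 1.31, 1.01 and 3.80 FPKM with CCl4. At 2 months DKO was 11.8 times WT and at 8 months it was the lowest of the 4. Cyp2c68 was at 121, 171, 77.2 and 214 FPKM at 2 months, at 65.2, 59.6, 109 and 61.1 FPKM at 8 months and at 43.5, 33.8, 26.5 and 113 FPKM with CCl4. Its highest value was again that of DKO at 2 months. Cyp2c67 went the other way, at 217, 224, 156 and 67.1 FPKM at 2 months, at 136, 88.8, 144 and 42.5 FPKM at 8 months and at 60.9, 39.9, 41.9 and 33.6 FPKM with CCl4, with DKO the lowest genotype in each condition. All 4 fell with CCl4, with differences of -2.79 (SE 0.73, adjusted p = 0.0103) for Cyp2c40, -2.51 (SE 0.63, adjusted p = 0.00873) for Cyp2c69, -1.54 (SE 0.41, adjusted p = 0.0105) for Cyp2c68 and -1.78 (SE 0.25, adjusted p = 0.000402) for Cyp2c67. Without E1KO the calls of Cyp2c40, Cyp2c69 and Cyp2c68 were lost, and without WT that of Cyp2c68. The likeness of the 4 genes beyond the upstream bases shown was not measured, and reads may be exchanged, so the split of reads among them is uncertain.

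**Figure D2:**
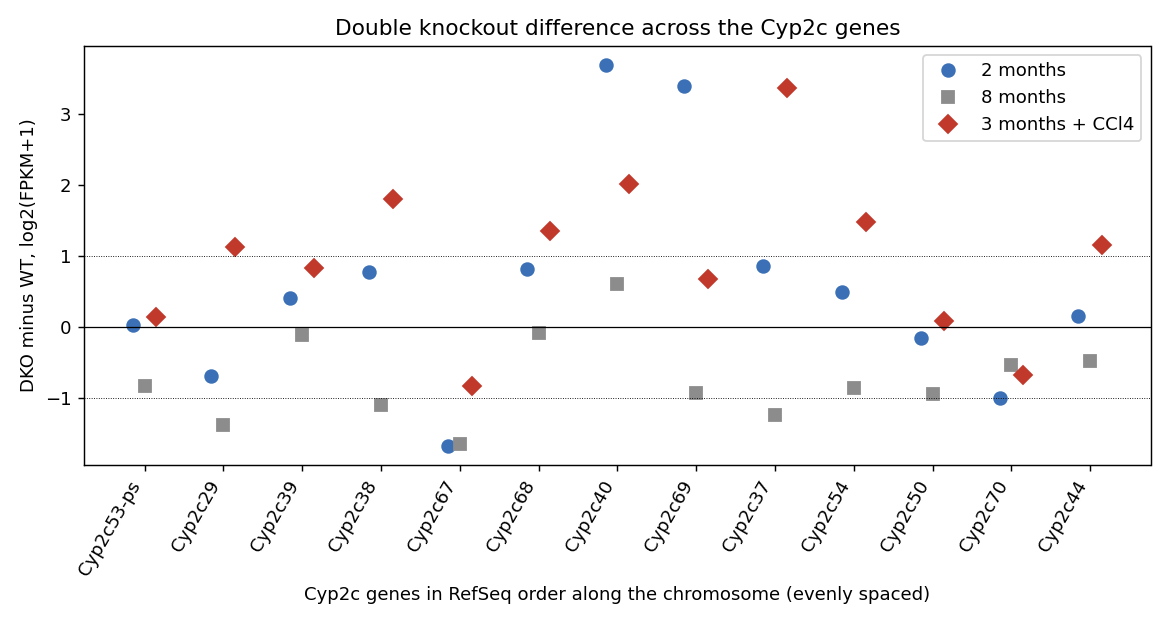
DKO minus WT difference in log2(FPKM+1) for the 13 Cyp2c genes, in RefSeq order along chromosome 19 and evenly spaced, at 2 months (circles), 8 months (squares) and 3 months with CCl4 (diamonds), with dotted lines at -1 and 1. Cyp2c40 (3.69) and Cyp2c69 (3.40) are highest at 2 months, Cyp2c37 (3.37) is highest with CCl4, and neighbouring Cyp2c67 is below 0 in all 3 conditions.

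Among the Cyp2d genes, 6 of 8 fell with CCl4, where 24.5% of all genes tested were called lower. Cyp2d9, a testosterone hydroxylase known as male-biased, was at 851, 987, 1196 and 675 FPKM at 2 months, at 913, 808, 809 and 441 FPKM at 8 months and at 320.4, 261, 388 and 249 FPKM with CCl4. It fell by 1.59 (SE 0.16, adjusted p = 8.99e-05) without overlap, and DKO was the lowest genotype in each condition. Cyp2d26 was at 567, 624, 727 and 459 FPKM at 2 months, at 679, 713, 666 and 553 FPKM at 8 months and at 372, 373, 515 and 461 FPKM with CCl4. Its smaller difference of -0.46 (SE 0.15, adjusted p = 0.0257) overlapped the 2-month DKO value, and was not called without WT, E1KO or E2KO. Cyp2d10 was at 419.8, 594, 515 and 457 FPKM at 2 months, at 481, 419, 425 and 323 FPKM at 8 months and at 166, 163, 221 and 290.4 FPKM with CCl4. It fell by 1.27 (SE 0.22, adjusted p = 0.00133), with every CCl4 group below every untreated one. Cyp2d22, held to be a counterpart of the human drug-metabolising CYP2D6, was at 102, 114, 137 and 87.9 FPKM at 2 months, at 118, 117, 135 and 89.9 FPKM at 8 months and at 32.9, 28.4, 33.3 and 32.8 FPKM with CCl4. The 4 CCl4 values lay close together, and it fell by 1.74 (SE 0.12, adjusted p = 2.49e-05).

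Cyp2d13 had the deepest fall of the 43 on the log2(FPKM+1) scale, at -3.17 (SE 0.12, adjusted p = 3.51e-06). With a pseudocount of 0.1 its difference was -3.32, and Cyp2c40 (-4.65), Cyp2c38 (-4.32) and Cyp2c53-ps (-3.56) fell further. Cyp2d13 was at 71.6, 66.8, 74.9 and 73.5 FPKM at 2 months, at 102, 125, 117 and 90.8 FPKM at 8 months and at 6.97, 5.89, 7.93 and 7.70 FPKM with CCl4, so the CCl4 groups stood at 8.81% to 10.6% of their 2-month values in all 4 genotypes. Cyp2d37-ps was at 46.9, 41.5, 48.9 and 49.1 FPKM at 2 months, at 94.0, 89.0, 49.4 and 73.4 FPKM at 8 months and at 5.85, 4.21, 5.84 and 4.90 FPKM with CCl4, and fell by 2.95 (SE 0.18, adjusted p = 2.09e-05). RefSeq lists both as transcribed pseudogenes, and reads may be shared with other Cyp2d genes. Cyp2d40 was at 115, 81.8, 95 and 39.6 FPKM at 2 months, at 133, 84.8, 63.0 and 37.0 FPKM at 8 months and at 56.5, 49.2, 87.9 and 34.4 FPKM with CCl4, with overlap between conditions, and was not called with CCl4 at -0.51 (SE 0.23, adjusted p = 0.0899). Cyp2d12, at 0.17 to 2.11 FPKM, was not called either at -0.48 (SE 0.20, adjusted p = 0.0605).

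Cyp2f2, known for activating naphthalene and as a periportal gene in liver, was at 1062, 912, 1156 and 505 FPKM at 2 months, at 686, 644, 537 and 546 FPKM at 8 months and at 502, 288, 471 and 51.6 FPKM with CCl4. It fell by 1.82 (SE 0.45, adjusted p = 0.00765), with every CCl4 value below the untreated ones, and the DKO value with CCl4 was the lowest of the 12 at 10.3% of WT. Cyp2j5, an arachidonic acid epoxygenase known as male-biased, was at 205, 172, 216 and 143 FPKM at 2 months, at 228, 199, 207 and 118 FPKM at 8 months and at 127, 111, 148 and 95 FPKM with CCl4. It fell by 0.61 (SE 0.11, adjusted p = 0.00166), with overlap between CCl4 values and those of untreated DKO, and DKO was the lowest genotype in each condition. Cyp2j9 was at 3.23, 2.44, 4.21 and 2.13 FPKM at 2 months, at 4.36, 6.20, 8.13 and 4.71 FPKM at 8 months and at 0.45, 0.58, 0.43 and 0.74 FPKM with CCl4. It fell by 1.34 (SE 0.17, adjusted p = 0.000297) without overlap. Cyp2j6 stayed within 22.3 to 36.1 FPKM and was not called, at -0.15 (SE 0.11, adjusted p = 0.277).

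Cyp2g1, known from the olfactory mucosa, was at 1.02, 1.74, 1.62 and 2.49 FPKM at 2 months, at 1.01, 1.6, 0.60 and 0.97 FPKM at 8 months and at 0.58, 0.04, 0.20 and 0.38 FPKM with CCl4. It fell by 1.05 (SE 0.20, adjusted p = 0.00201), with every CCl4 value below the untreated ones. Cyp2u1, a fatty acid hydroxylase, was at 8.93, 4.16, 11.5 and 5.01 FPKM at 2 months, at 4.48, 5.66, 4.94 and 1.96 FPKM at 8 months and at 3.12, 3.98, 3.97 and 2.81 FPKM with CCl4. Its difference of -0.83 (SE 0.24, adjusted p = 0.0173) overlapped the other conditions, and the call was lost without WT or E2KO. Cyp2r1, a vitamin D hydroxylase, lay between 7.14 and 12.9 FPKM and was not called at 0.26 (SE 0.11, adjusted p = 0.0778).

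Of the Cyp3a genes 1 of 6 was called lower with CCl4 and 0 higher. That is near the 24.5% of all genes tested that were called lower, while 33.4% were called higher. A contrast with the Cyp2c and Cyp2d genes was not tested. Cyp3a11, the main PXR-inducible P450 of mouse liver, was at 1830.3, 2168, 2896 and 2423 FPKM at 2 months, at 2739.7, 2658, 3075 and 2739 FPKM at 8 months and at 1578, 1845, 2392 and 3877 FPKM with CCl4. The CCl4 groups held both the lowest value (WT) and the highest (DKO), and the difference was -0.01 (SE 0.21, adjusted p = 0.966). Cyp3a25 was at 259.8, 229.7, 333 and 190.2 FPKM at 2 months, at 303, 306, 329.6 and 245 FPKM at 8 months and at 135, 183, 139 and 116 FPKM with CCl4. It fell by 0.81 (SE 0.14, adjusted p = 0.00129) without overlap. Cyp3a13 (33.3 to 92.9 FPKM), Cyp3a59 (12 to 45 FPKM) and Cyp3a16 (0.51 to 2.01 FPKM) were not called, at 0.37 (SE 0.21, adjusted p = 0.158), 0.73 (SE 0.29, adjusted p = 0.0597) and 0.20 (SE 0.17, adjusted p = 0.33). The highest Cyp3a13 and Cyp3a16 values were those of DKO with CCl4, and the highest Cyp3a59 value that of E1KO with CCl4.

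Cyp3a44, known as female-biased, was at 0.25, 0.46, 0.33 and 5.63 FPKM at 2 months, at 0.20, 0.24, 0.36 and 0.42 FPKM at 8 months and at 1.56, 1.27, 1.67 and 27.2 FPKM with CCl4. DKO was the highest genotype in each condition, and the 2-month DKO value and the DKO value with CCl4 lay above all others. It reached 1 FPKM only in the CCl4 groups and in DKO at 2 months, and was not called with CCl4, at 1.19 (SE 0.51, adjusted p = 0.0713). The related Cyp3a41a, also known as female-biased, was at 0.02 FPKM or less. Its likeness to Cyp3a44 was not measured here, and reads between these genes may be exchanged. Female-biased Cyp3a16 was at 0.72 FPKM in DKO at 2 months, within the 0.54 to 1.08 FPKM of the other genotypes. Of 6 genes listed as female-biased 4 were tested, and 0 of the 4 were called in DKO against WT. Only 1.81% of all genes tested were called higher there and 0.816% lower, so 0 of 4 is near that share.

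Of the Cyp4f genes, which hydroxylate leukotriene B4 and fatty acids, 4 of 6 fell with CCl4 and 2 rose. Among all genes tested 24.5% were called lower and 33.4% higher, so the 2 of 6 that rose are near that share. Cyp4f14 was at 131, 145, 162 and 189 FPKM at 2 months, at 108, 95.6, 139 and 99.9 FPKM at 8 months and at 88.0, 56.3, 64.6 and 188 FPKM with CCl4. Its DKO value with CCl4 was nearly equal to that at 2 months, and the difference of -0.81 (SE 0.28, adjusted p = 0.036) was no longer called without WT, E1KO or E2KO, or with no filter. Cyp4f15 was at 54.0, 56.8, 70.0 and 55.8 FPKM at 2 months, at 63.6, 68.3, 62.4 and 70.0 FPKM at 8 months and at 22.9, 23.4, 27.4 and 37.1 FPKM with CCl4, and fell by 1.08 (SE 0.14, adjusted p = 0.000243) without overlap. Cyp4f13 was at 44.5, 51.2, 50.1 and 41.8 FPKM at 2 months, at 41.7, 39.7, 42.7 and 29.1 FPKM at 8 months and at 21.1, 21.1, 27.3 and 28.1 FPKM with CCl4, and fell by 0.92 (SE 0.14, adjusted p = 0.000716), again without overlap. Cyp4f17 was at 3.11, 1.39, 2.33 and 1.29 FPKM at 2 months, at 2.13, 2.11, 1.94 and 1.84 FPKM at 8 months and at 0.94, 1.02, 0.83 and 0.93 FPKM with CCl4. It fell by 0.61 (SE 0.15, adjusted p = 0.0077), a call lost without E2KO.

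Cyp4f16 was at 0.62, 0.61, 0.53 and 0.81 FPKM at 2 months, at 0.59, 0.53, 0.39 and 2.25 FPKM at 8 months and at 3.88, 4.26, 3.82 and 3.45 FPKM with CCl4. It rose by 1.56 (SE 0.20, adjusted p = 0.000311), and its 8-month DKO value was the only untreated one above 1 FPKM. Cyp4f18, known from neutrophils and other myeloid cells, was at 0.17, 0.21, 0.21 and 0.15 FPKM at 2 months, at 0.26, 0.20, 0.12 and 0.55 FPKM at 8 months and at 0.96, 2.31, 1.30 and 1.64 FPKM with CCl4. It rose by 1.08 (SE 0.14, adjusted p = 0.000336), and both genes had every CCl4 value above the untreated ones. Cyp4b1, known from lung, was at 1.92, 2.94, 2.5 and 3.78 FPKM at 2 months, at 5.48, 4.26, 4.08 and 2.74 FPKM at 8 months and at 6.56, 7.30, 6.14 and 7.49 FPKM with CCl4, and rose by 1.08 (SE 0.19, adjusted p = 0.00157), again without overlap.

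Cyp4v3, a fatty acid hydroxylase whose human counterpart is CYP4V2, was at 213, 213, 227 and 147 FPKM at 2 months, at 179.8, 177, 173 and 182 FPKM at 8 months and at 158, 117, 150.5 and 154 FPKM with CCl4. Its difference of -0.45 (SE 0.15, adjusted p = 0.0277) overlapped the untreated range, and the call was lost without WT, E1KO or E2KO. Cyp1a1, the AhR target that oxidises aryl hydrocarbons, was at 0.56, 0.92, 0.68 and 0.48 FPKM at 2 months, at 0.60, 0.68, 0.70 and 0.51 FPKM at 8 months and at 2.89, 7.85, 2.54 and 0.85 FPKM with CCl4. It rose by 1.23 (SE 0.29, adjusted p = 0.0061), highest in E1KO, while the DKO value stayed within the untreated range.

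**Figure D3:**
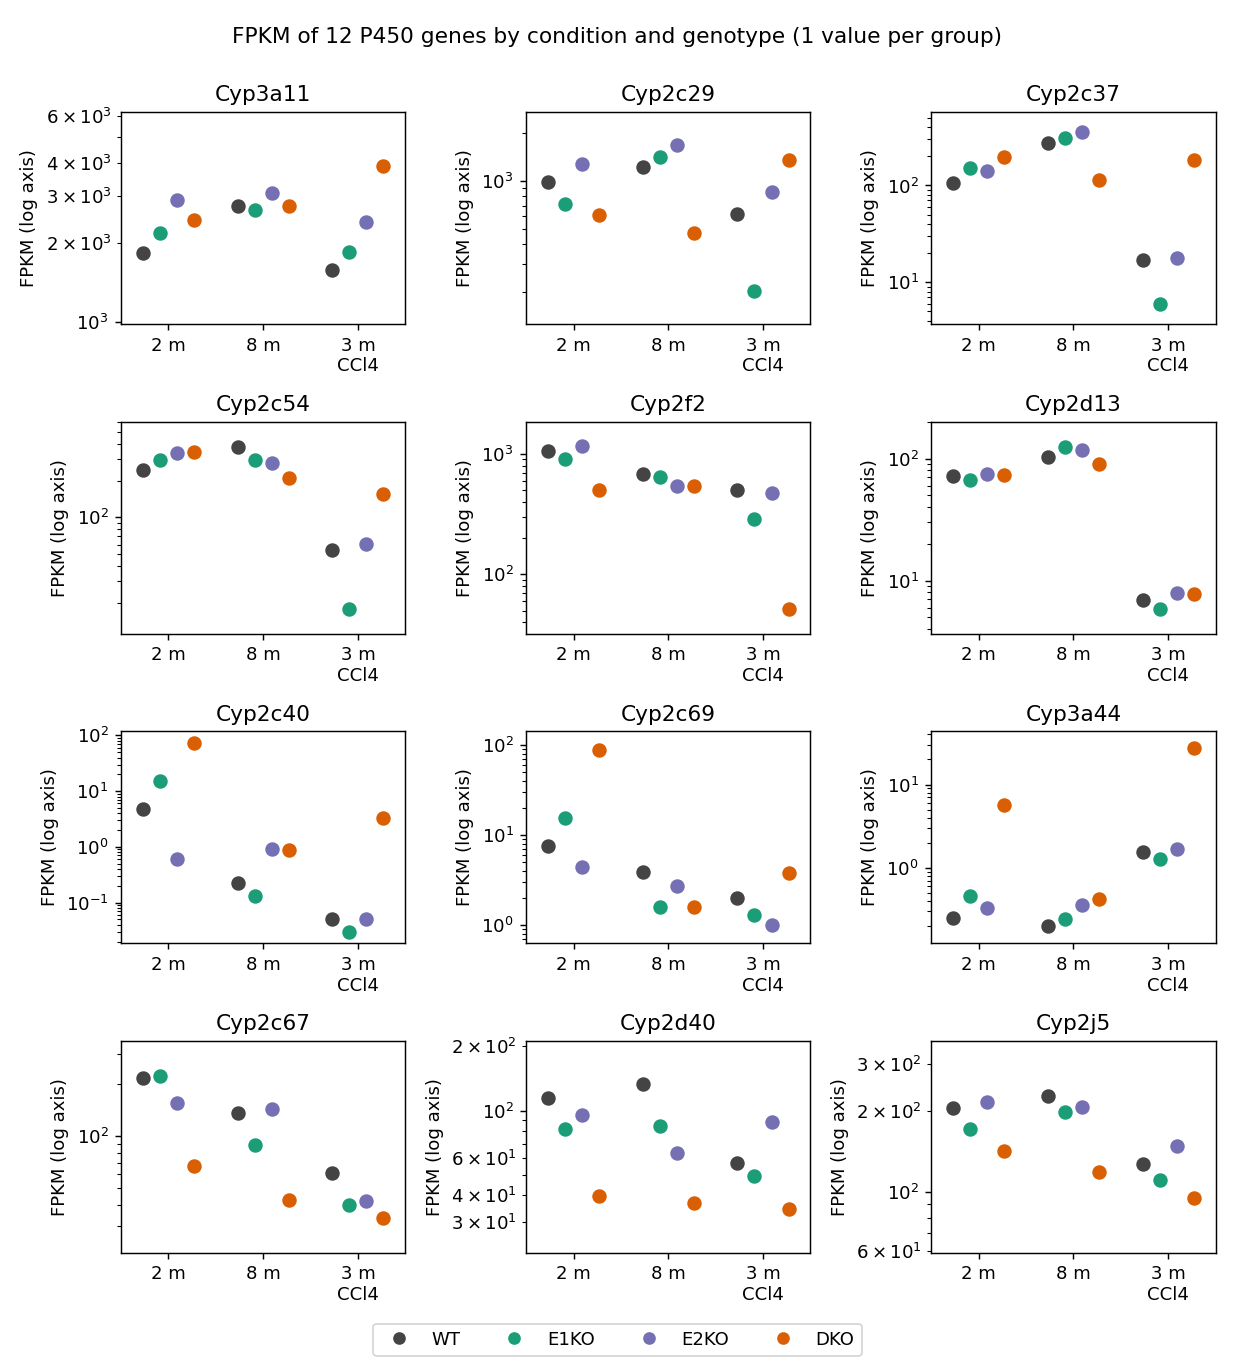
FPKM on log axes of 12 P450 genes by condition (2 months, 8 months, 3 months with CCl4) and genotype (colours), 1 point per group. Cyp2d13 drops in all 4 genotypes with CCl4, Cyp2c37 stays at 185 FPKM in DKO against 5.91 to 17.9 FPKM in the other genotypes, and Cyp2c67, Cyp2d40 and Cyp2j5 have DKO at the bottom of each condition.

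In DKO 3 of the 43 genes fell against WT over the 3 conditions (0.816% of all genes tested were called lower) and 0 rose (1.81% of all genes were called higher). With limma 10 of the 43 (23.3%) were below an unadjusted p of 0.05, near the 18.9% of all genes. Cyp2d40 fell by 1.34 (SE 0.27, adjusted p = 0.0435), standing at 34.6% of WT at 2 months, 27.9% at 8 months and 61% with CCl4. Cyp2c67 fell by 1.39 (SE 0.28, adjusted p = 0.0452), at 31%, 31.2% and 55.3% of WT in the same order. Cyp2j5 fell by 0.62 (SE 0.13, adjusted p = 0.0457), at 69.4%, 52% and 75% of WT. Without the group labelled E1KO at 8 months the adjusted p of these genes was 0.0609, 0.0636 and 0.0554, and all 3 calls were also lost when any condition was left out. With medians scaled alike 1 of the 3 was called, Cyp2c67, and with no filter on low values 1, Cyp2j5. Among markers of other cells, 2 of 6 cholangiocyte genes (Cldn7 and Krt23), 1 of 12 stellate cell genes (Dcn) and 1 of 3 lymphocyte genes (Nkg7) rose in DKO, and 0 of 9 hepatocyte genes changed. Their part in the P450 differences was not tested.

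DKO was the lowest of the 4 genotypes in all 3 conditions for 7 of the 43 (Cyp1a1, Cyp2c67, Cyp2d40, Cyp2d9, Cyp2j5, Cyp2r1 and Cyp3a25), which 8.63% of all genes tested also showed. It was the highest in all 3 for Cyp3a44 alone, where 5.94% of all genes were. The differences of Cyp3a44 (2.04, SE 0.58, adjusted p = 0.112), Cyp2c40 (2.11, SE 0.84, adjusted p = 0.225), Cyp2f2 (-1.55, SE 0.52, adjusted p = 0.155), Cyp2c70 (-0.74, SE 0.23, adjusted p = 0.137) and Cyp2d9 (-0.58, SE 0.18, adjusted p = 0.137) were not called. Over the 43 genes the median DKO difference was -0.001 and over all genes -0.05.

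The genes past the fold rule in DKO differed between conditions. At 2 months 3 were higher in DKO than in WT (1.99% of all genes were), which were Cyp2c40 (3.69), Cyp2c69 (3.40) and Cyp3a44 (2.41), and 5 were lower (1.48% of all genes), Cyp2c67 (-1.68), Cyp2d40 (-1.51), Cyp2f2 (-1.07), Cyp3a13 (-1.05) and Cyp2c70 (-1.0). At 8 months Cyp4f16 was higher (1.03, 2.86% of all genes) and 6 were lower (1.22% of all genes), Cyp2d40 (-1.81), Cyp2c67 (-1.66), Cyp2c29 (-1.38), Cyp2c37 (-1.24), Cyp2c38 (-1.10) and Cyp2d9 (-1.05). With columns scaled to a common median, 2 of the 5 lower genes at 2 months stayed past the rule. No gene was past it with the same sign in all 3 conditions.

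With CCl4, 10 genes were higher in DKO than in WT (2.93% of all genes were) and 2 were lower (2.47% of all genes). The 10 were Cyp3a44 (3.46), Cyp2c37 (3.37), Cyp2c40 (2.02), Cyp2c38 (1.81), Cyp2c54 (1.49), Cyp2c68 (1.36), Cyp3a11 (1.30), Cyp2c44 (1.16), Cyp2c29 (1.13) and Cyp4f14 (1.09). The lower genes were Cyp2f2 (-3.25) and Cyp1a1 (-1.07). Of the 5 genes known as pericentral, the summed level with CCl4 was 2504, 2176, 3559 and 5819 FPKM, and DKO alone was above its 2-month sum of 4069 FPKM. Cyp3a11 alone held 3877 FPKM of the DKO sum with CCl4. In that group Cyp2c29 was at 222% and Cyp3a11 at 160% of the 2-month DKO value. Cyp2c37 (94.8%), Cyp2c50 (50.5%) and Cyp2c54 (45%) were below theirs. Periportal Cyp2f2 had its lowest value in the same DKO group. Cyp2e1, the pericentral enzyme that activates CCl4, is not among the 43 and was at 464, 151, 386 and 3857 FPKM in these groups, against 3778 to 7466 FPKM untreated. In the same groups the 9 hepatocyte genes summed to 7248, 8308, 7382 and 10247 FPKM and the 12 stellate cell genes to 310.4, 430.5, 322.2 and 349 FPKM. The stellate genes were split. Acta2, the smooth muscle actin of activated cells, was at 37.6, 64.5, 31.4 and 6.98 FPKM and Tagln at 63.5, 106.9, 56.3 and 19.1 FPKM, both lowest in DKO. Des, Pdgfrb and Timp1 were also lowest in DKO. Col3a1, Dcn (96.0, 94.1, 111 and 176 FPKM), Lrat, Lum (16.3, 10.9, 17.5 and 29.5 FPKM) and Reln were highest in DKO, and Col1a1 and Col1a2 lay between. The part of these levels, and of that of Cyp2e1, in the P450 differences was not tested.

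Counted against the same genotype at 2 months, 23 genes were lower with CCl4 in WT (5.23% of all genes), 23 in E1KO (7.07%), 22 in E2KO (6.03%) and 12 in DKO (3.96%). Genes higher by the same rule numbered 4 in WT (8.80%), 5 in E1KO (11.0%), 4 in E2KO (10.1%) and 5 in DKO (8.46%). The median difference over the 43 was -1.04, -1.24, -1.12 and -0.57. The test of whether the DKO difference with CCl4 departed from that at 2 months called 0 of the 43 (0.219% of all genes were called higher and 0.0702% lower). With limma 17 of the 43 (39.5%) were below an unadjusted p of 0.05 in that test, against 9.19% of all genes. The same test called 1 of the 12 stellate cell genes lower (Tagln) and 0 of the 9 hepatocyte genes. Cyp2c37 departed by 3.24 (SE 0.70, adjusted p = 0.243), Cyp2f2 by -1.92 (SE 0.40, adjusted p = 0.239), Cyp2c29 by 2.18 (SE 0.71, adjusted p = 0.404) and Cyp3a44 by 1.20 (SE 0.20, adjusted p = 0.134).

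**Figure D4:**
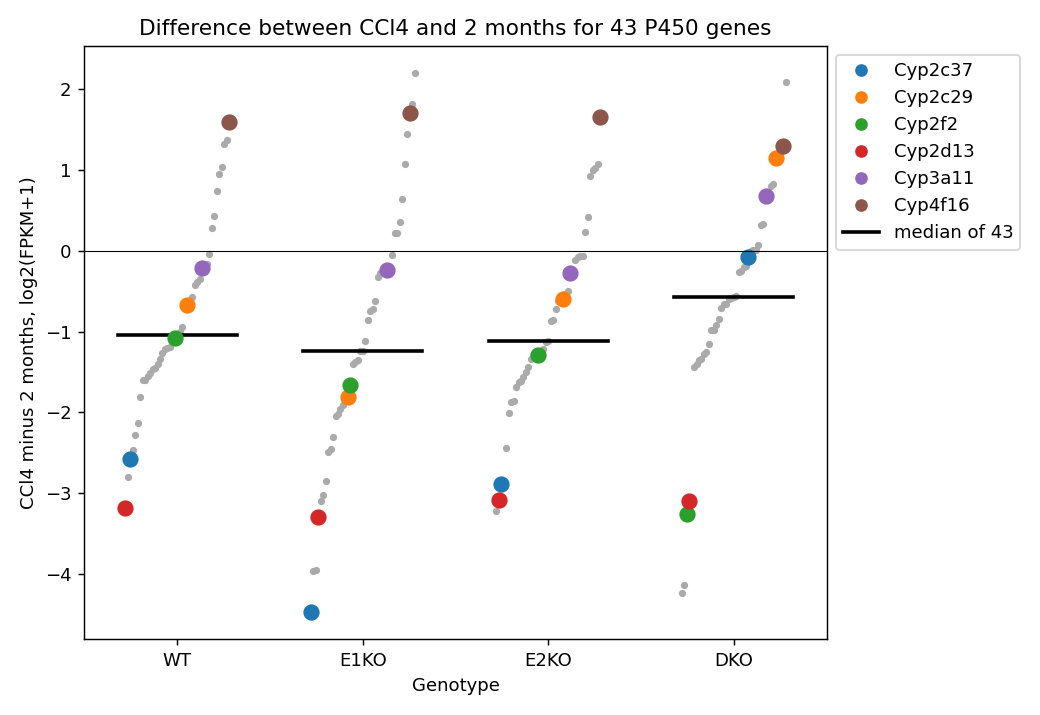
CCl4 minus 2 months difference in log2(FPKM+1) of the 43 P450 genes in each genotype, ordered by size within the genotype, with 6 genes coloured and the median as a black bar. The median is -1.04 in WT, -1.24 in E1KO, -1.12 in E2KO and -0.57 in DKO, and Cyp2c37 and Cyp2c29 move towards the top in DKO while Cyp2f2 moves towards the bottom.

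Between 2 and 8 months the DKO difference of 1 gene departed, Cyp3a44, with a change of -2.14 (SE 0.20, adjusted p = 0.0107) at 8 months (0.0614% of all genes were called lower and 0.184% higher). At 2 months it was 5.63 FPKM in DKO against 0.25 to 0.46 FPKM in the others, and at 8 months 0.42 against 0.20 to 0.36 FPKM. The SE of this test comes from the low values of the other genotypes and holds no spread of the DKO values. The call was lost without the group labelled E1KO at 8 months (adjusted p = 0.052) and with a pseudocount of 0.1 (-3.18, adjusted p = 0.16). Cyp2c69 (-3.78, SE 0.76, adjusted p = 0.291) and Cyp2c40 (-3.39, SE 1.39, adjusted p = 1) were not called. The transcription factor gene Cux2, known as female-specific in mouse liver, was at 0.02, 0.04, 0.01 and 0.95 FPKM at 2 months, at 0.02, 0.03, 0.02 and 0.04 FPKM at 8 months and at 0.03, 0.01, 0.02 and 0.63 FPKM with CCl4. It was highest in the same DKO groups as Cyp3a44, at 2 months and with CCl4, and was too low to be tested.

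In E1KO and in E2KO 0 of the 43 genes were called against WT in either direction (for E1KO 0.0176% of all genes were called higher and 0% lower, for E2KO 0% and 0%). With limma 1 of the 43 (2.33%) was below an unadjusted p of 0.05 in each, where 5.62% of all genes were for E1KO and 1.36% for E2KO. These were Cyp2j6 in E1KO (-0.41, SE 0.13, adjusted p = 0.816) and Cyp3a13 in E2KO (-0.58, SE 0.24, adjusted p = 1). DKO against E1KO also called 0 (0.562% of all genes higher, 0.0965% lower), with 10 of the 43 (23.3%) below an unadjusted p of 0.05 and 9.46% of all genes. These comparisons share groups, those with WT the same WT groups, and are set side by side only.

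Within a condition few genes passed the fold rule in E1KO or E2KO. At 2 months Cyp2c40 was higher in E1KO (1.47, 1.09% of all genes higher) and 0 genes were lower (1.14%), and in E2KO 0 were higher (0.395%) and Cyp2c40 was lower (-1.85, 0.816% of all genes lower). At 8 months 0 were higher (0.843%) or lower (1.10%) in E1KO, and in E2KO 0 were higher (1.38%) and Cyp2d40 was lower (-1.06, 1.42% of all genes lower). With CCl4, E1KO was higher for Cyp1a1 (1.19, 1.20% of all genes higher) and lower for 4 Cyp2c genes (0.825% of all genes lower), Cyp2c29 (-1.6), Cyp2c54 (-1.55), Cyp2c37 (-1.38) and Cyp2c50 (-1.18). In E2KO with CCl4 0 were higher (0.421%) or lower (0.579%). The E1KO group with CCl4 held the lowest of the 12 values for 19 of the 43 genes, and for 11.9% of all genes. The summed macrophage genes were also highest there, at 408 FPKM against 173 to 316 FPKM in the other CCl4 groups, and their part in the P450 values was not tested.

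Between 2 and 8 months 3 genes changed. Cyp2d13 rose by 0.58 (SE 0.12, adjusted p = 0.0351) and Cyp2j9 by 0.77 (SE 0.17, adjusted p = 0.0484), where 2.70% of all genes were called higher. Cyp2c70 fell by 1.30 (SE 0.20, adjusted p = 0.0139), where 1.59% were called lower. At 8 months Cyp2d13 was at 143%, 187%, 156% and 124% of its 2-month value, and Cyp2c70 at 28.6%, 36.1%, 66.8% and 39.4%. All 3 calls were lost without the group labelled E1KO at 8 months. Cyp2c38 (1.36, SE 0.45, adjusted p = 0.122) and Cyp2c40 (-2.79, SE 0.73, adjusted p = 0.0691) were not called. By the fold rule within a genotype, 3 genes were higher at 8 months than at 2 months in WT (2.62% of all genes), 4 in E1KO (1.70%), 2 in E2KO (1.76%) and 0 in DKO (2.46%). Lower by the same rule were 2 in WT (1.93%), 5 in E1KO (1.73%), 2 in E2KO (1.22%) and 6 in DKO (1.33%). This comparison shares its 2-month groups with that of CCl4.

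Genes that work with these P450s were read from lists chosen by function, against the 33.4% of all genes called higher and 24.5% called lower with CCl4. Of 17 tested regulators of P450 genes 10 fell with CCl4 and 0 rose, among them the foreign compound sensors Nr1i3 (CAR, -1.04, adjusted p = 0.00732) and Nr1i2 (PXR, -0.63, adjusted p = 0.00145), Ahr (-0.40, adjusted p = 0.0307) and the hepatocyte factor Cebpa (-1.02, adjusted p = 7.95e-05). In DKO 1 of the 17 fell (0.816% of all genes were called lower), Foxa2 (-0.69, adjusted p = 0.0478). The Foxa2 difference in E1KO was as large but not called (-0.73, adjusted p = 0.416). At 8 months 1 of the 17 rose (2.70% of all genes were called higher), Nr1i3 (1.18, adjusted p = 0.0399). Of 7 partners in electron transfer and membrane anchoring 4 fell with CCl4 (Cyb5r3, Fdx1, Fdxr and Pgrmc1), while the reductase gene Por was not called (-0.07, adjusted p = 0.802) and was at 138, 122, 140.3 and 225 FPKM there. Among genes of haem synthesis, Cpox rose with CCl4 (0.43, adjusted p = 0.00864) and Uros fell (-0.54, adjusted p = 0.0335), and of those that break haem down Blvra (0.49, adjusted p = 0.0034) and Hmox1 (1.44, adjusted p = 0.00591) rose. Hmox1, the haem oxygenase that opens the ring, was at 17.0, 8.43, 7.38 and 7.13 FPKM at 2 months, at 9.5, 6.15, 7.55 and 12.9 FPKM at 8 months and at 18.1, 39.8, 20.7 and 35.9 FPKM with CCl4.

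Among 12 enzymes that act on P450 products, 1 rose with CCl4 (Ephx1, an epoxide hydrolase) and 4 fell (Aox1, Gstm1, Sult1a1 and Ugt2b5). In DKO Aox1 fell (0.816% of all genes were called lower). Of 4 other AhR targets tested 1 fell with CCl4, Cyp1a2, near the share of all genes called lower (24.5%). Of 10 other PXR and CAR targets 4 rose with CCl4, near the share of all genes, and 1 fell, and 3 rose in DKO (1.81% of all genes), Cyp2b10, Cyp2c55 and Gadd45b. Cyp2b10, the classical CAR target, was at 8.44, 14.3, 8.11 and 25.1 FPKM at 2 months, at 12.2, 29.1, 15.7 and 22.9 FPKM at 8 months and at 39.5, 93.1, 80.1 and 134 FPKM with CCl4. Cyp3a11 was not called in either comparison, at -0.01 (SE 0.21, adjusted p = 0.966) with CCl4 and 0.57 (SE 0.24, adjusted p = 0.247) in DKO.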

How the data were processed

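Liver RNA of 12 groups (4 genotypes in 3 conditions) was measured by RNA-seq. The authors deposited 1 table of FPKM values with 22520 genes and 1 column per group, to 2 decimals. Per the submitters' processing notes the build was mm9, and the tools named for RNA and ChIP together are CASAVA, TopHat, BWA, Cufflinks, SICER and HOMER. Tool versions and the way replicates were combined were not given in the sources used here. The 9 ChIP-seq samples were not analysed here.

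A gene was tested where 2 or more columns held 1 FPKM or more (11394 genes). Using R 4.3.3, limma 3.58.1 (with eBayes and a mean trend) was fitted to log2(FPKM+1) with additive genotype and condition terms (6 residual degrees of freedom), and again with DKO-by-condition terms (4), where the DKO difference is from the average of the other genotypes. The fit with DKO-by-condition terms takes its residuals from WT, E1KO and E2KO only. Tests were two-sided with Benjamini-Hochberg adjustment over all tested genes at 0.05. The scripts were tested on simulated data. Alternatives were a pseudocount of 0.1, no filter, columns scaled to a common median, no trend, only the genotypes compared, and columns left out.

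All 12 values were given for genes called in any test and for the 12 with the highest mean, and others by range. The genes and lists were chosen with earlier results of these data known. Promoter windows and chromosome order are from RefSeq tables. Results for some listed genes are not reported here.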

Additional observations from a re-analysis of the deposited data

Results flagged for a closer look

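Cyp3a44 stood out because its difference between DKO and the other genotypes was not the same at 8 months as at 2 months, by a test of that change itself (-2.14 on the log2 scale, SE 0.20, limma adjusted p = 0.0107). At 2 months its DKO value was 5.63 FPKM against 0.25 to 0.46 FPKM in the other genotypes, and at 8 months it was 0.42 FPKM against 0.20 to 0.36 FPKM. The change was in the same direction with a pseudocount of 0.1 (-3.18) but its adjusted p was then 0.16. The SE of this test rests on the WT, E1KO and E2KO values and holds no spread of the DKO values. The titles name 3 replicates at 2 months and 2 at 8 months, and their part in the change was not tested.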

How the results depend on the processing

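Alternatives were run for the called genes and the counts of calls among the P450 genes described here, and none of these reversed. The calls of listed genes outside this set, such as regulators, cell markers and Cyp2b10, were not rerun under them. The counts by the fold rule between 2 months and 8 months within a genotype were not rerun either. Sums, ranks and orders of levels had no alternative. Of the 32 calls with CCl4, 22 held under all 9 alternatives, and the count of genes called lower ran from 20 to 29 and higher from 4 to 6 with a genotype left out. The 3 genes called lower in DKO became 1 with no filter, 1 with columns scaled to a common median, 0 without the group labelled E1KO at 8 months, 0 with only WT and DKO, and 0 to 0 with a condition left out. At 8 months the 2 genes called higher became 1 with a pseudocount of 0.1, 0 with no filter, 0 without that E1KO group, 1 without a trend, and 0 to 1 with a genotype left out. The 1 gene called lower became 0 without that E1KO group and ranged from 0 to 2 with a genotype left out. For the change of the DKO difference at 8 months, the count higher went from 0 to 1 with no filter, and the count lower from 1 to 0 with a pseudocount of 0.1 and 0 without that E1KO group. By the fold rule, a pseudocount of 0.1 moved the counts of DKO at 2 months higher from 3 to 5, E1KO at 2 months higher from 1 to 2 and lower from 0 to 2, DKO at 8 months higher from 1 to 2, E1KO at 8 months lower from 0 to 1, E2KO at 8 months higher from 0 to 1 and lower from 1 to 2, E1KO with CCl4 higher from 1 to 2, and E2KO with CCl4 lower from 0 to 1. Scaling to a common median moved DKO at 2 months lower from 5 to 2, E1KO at 2 months higher from 1 to 2, and CCl4 against 2 months in E2KO higher from 4 to 2. The cause of these changes was not tested, other than fewer columns where columns were left out. No paired analysis was possible by replicate number because each group has 1 column; the fit compares genotypes within conditions. With 1 value per group and unknown depth, differences of genes near 1 FPKM are the least certain.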
